A study of Mus musculus with 8 samples.

Results

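Glomerular transcripts of the TGF-beta system were examined in mice lacking Cd151, a tetraspanin that partners laminin-binding integrins at the cell surface. The 10 genes were matched on the array by their symbols and comprised the ligands Tgfb1, Tgfb2 and Tgfb3, the receptors Tgfbr1, Tgfbr2 and Tgfbr3, the latency protein gene Ltbp1, and Smad2, Smad3 and Smad7. They are 10 of the 18120 gene symbols on the array and are read by 20 of its 25697 probes. Of these, 13 probes, for 9 of the genes, were detected on at least 1 array and could be tested. The only probe for Smad7 was not detected on any array.

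RNA came from glomerular isolates of 4 Cd151+/+ and 4 Cd151-/- mice, all male, of the FVB/N strain and 3 weeks of age, with 1 mouse on each array of the MouseRef-8 v1.1 BeadChip platform. The mice are numbered 1 to 4 within a genotype. The Cd151 deletion was carried by the whole animal, and the labels name no other allele and no treatment in either group. The study asked which glomerular genes differ between the genotypes early in the kidney disease of this strain.

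TGF-beta is secreted in a latent form, in which the mature cytokine stays wrapped in its own propeptide, and the propeptide is often tethered to matrix by a latent TGF-beta binding protein. Once released, the ligand binds the type II receptor, which activates the type I receptor. That receptor phosphorylates Smad2 and Smad3, which enter the nucleus with Smad4, and Smad7 is an induced inhibitor of the same step. In the glomerulus the pathway is best known for driving mesangial matrix production and for its part in podocyte loss and scarring.

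Levels are normalised log2 signal, the log2 brightness of a probe after background correction and quantile normalisation, and a difference is Cd151-/- minus Cd151+/+ on that scale. A probe counted as detected on an array at a detection p-value of 0.05 or lower. Where a gene had several probes, the brightest is given first. The precision is set by the number of arrays, and intervals are at the 95% level. The groups come from separate mice, and single probes were also compared by a two-sided exact permutation test over all 70 ways to split 8 mice into 4 and 4, which cannot give a p below 0.0286.

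Across the whole array, the inferred background of the arrays lay between 59.0 and 135 signal units and fell into 2 sets that crossed the genotypes. The higher background belonged to mice 3 and 4 of Cd151+/+ and to mice 1 and 2 of Cd151-/-, and the lower to the remaining 4. The labels name no slide or batch for these sets, so each member is also given within them. Cd151 itself was detected in all 4 Cd151+/+ mice and in no Cd151-/- mouse with each of its 3 probes. Its brightest probe was at least 523-fold lower in Cd151-/- mice (limma adjusted p = 6.51e-10). Defining podocyte and endothelial markers such as Podxl, Wt1, Pecam1 and Ehd3 were detected in all mice, and proximal tubule markers were detected too.

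The promoters of Tgfb1, Tgfb2 and Ltbp1 are shown because these ligand and latency genes had the largest differences among the members with those roles, and because their windows differ in their letters. Each is the 250 bases before the RefSeq start in GRCm38.p6, written 5′ to 3′ on the gene's strand. Capitals in Tgfb1 (chr7:25686752-25687001, plus strand) mark GC boxes, GGGCGG or its reverse complement, CCGCCC. Capitals in Tgfb2 (chr1:186705990-186706239, minus strand) mark CAGACA, a Smad-binding repeat, and then TATAAA. Capitals in Ltbp1 (chr17:75005279-75005528, plus strand, the first of its RefSeq starts) mark a cyclic AMP response element, TGACGTCA.
Tgfb1: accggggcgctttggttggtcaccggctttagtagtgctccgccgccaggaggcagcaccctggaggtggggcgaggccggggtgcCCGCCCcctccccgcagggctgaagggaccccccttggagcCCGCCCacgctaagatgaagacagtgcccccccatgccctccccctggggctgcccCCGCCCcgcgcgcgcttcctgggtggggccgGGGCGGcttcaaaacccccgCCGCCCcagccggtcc
Tgfb2: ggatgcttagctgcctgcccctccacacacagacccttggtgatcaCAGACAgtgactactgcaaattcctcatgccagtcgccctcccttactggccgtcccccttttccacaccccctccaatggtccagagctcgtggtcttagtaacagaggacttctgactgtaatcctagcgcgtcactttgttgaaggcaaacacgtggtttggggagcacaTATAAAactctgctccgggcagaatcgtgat
Ltbp1: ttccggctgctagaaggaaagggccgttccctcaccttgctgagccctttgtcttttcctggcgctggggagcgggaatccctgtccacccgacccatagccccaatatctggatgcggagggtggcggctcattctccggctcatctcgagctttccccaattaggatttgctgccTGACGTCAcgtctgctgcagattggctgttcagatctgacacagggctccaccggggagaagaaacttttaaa

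The Tgfb1 window was 75.2% G and C and held 5 GC boxes, against a median of 52.4% G and C over 32851 RefSeq windows of the same length, of which 32.7% held at least 1 GC box. The Tgfb2 window was 53.6% G and C, with 1 CAGACA, a word found in 17.1% of windows, and 1 TATAAA, found in 12.4%. The TATAAA began 31 bases before the start. The printed Ltbp1 window was 56.8% G and C, and its 1 response element is a word found in 1.55% of windows. A second Ltbp1 window, not printed (chr17:75178531-75178780), held no response element and 2 CAGACA. Windows of Tgfbr1, Tgfbr2 and Smad3 were searched as well, both strands throughout. A Tgfbr1 window (chr4:47385966-47386215) held 1 CAGACA. The other Tgfbr1 window and the Smad3 window held 2 GC boxes each, and the Tgfbr2 window held none of the words. The AP-1 word TGANTCA, present in 6.75% of windows, was in none of the windows searched, which belong to 6 of the 10 members. No word overlapped another in the printed windows. The array read transcripts and not promoters, so these matches are a description of the sequence only.

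None of the 9 tested members passed a test of the genotype difference. At an unadjusted limma p of 0.05 or lower, 0 of 9 were called, against 4.37% of the 11240 genes with a tested probe (1.9% higher and 2.47% lower in Cd151-/- mice). An equal-variance test without moderation also called 0 of 9. The values of the genotypes overlapped for all 9, where 2.27% of genes had groups that did not overlap. After Benjamini-Hochberg adjustment 0.0334% of all probes tested were called, 5 of 14967, and no member was among them, with a lowest adjusted p of 0.918. The 9 differences ranged from -0.51 to 0.58, with 4 above and 5 below 0 and a median of -0.02, where the median over all genes was -0.0018. Their median size was 0.27, against 0.21 over all genes, and their median SD over the 8 mice was 0.40, against 0.38.

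**Figure D1:**
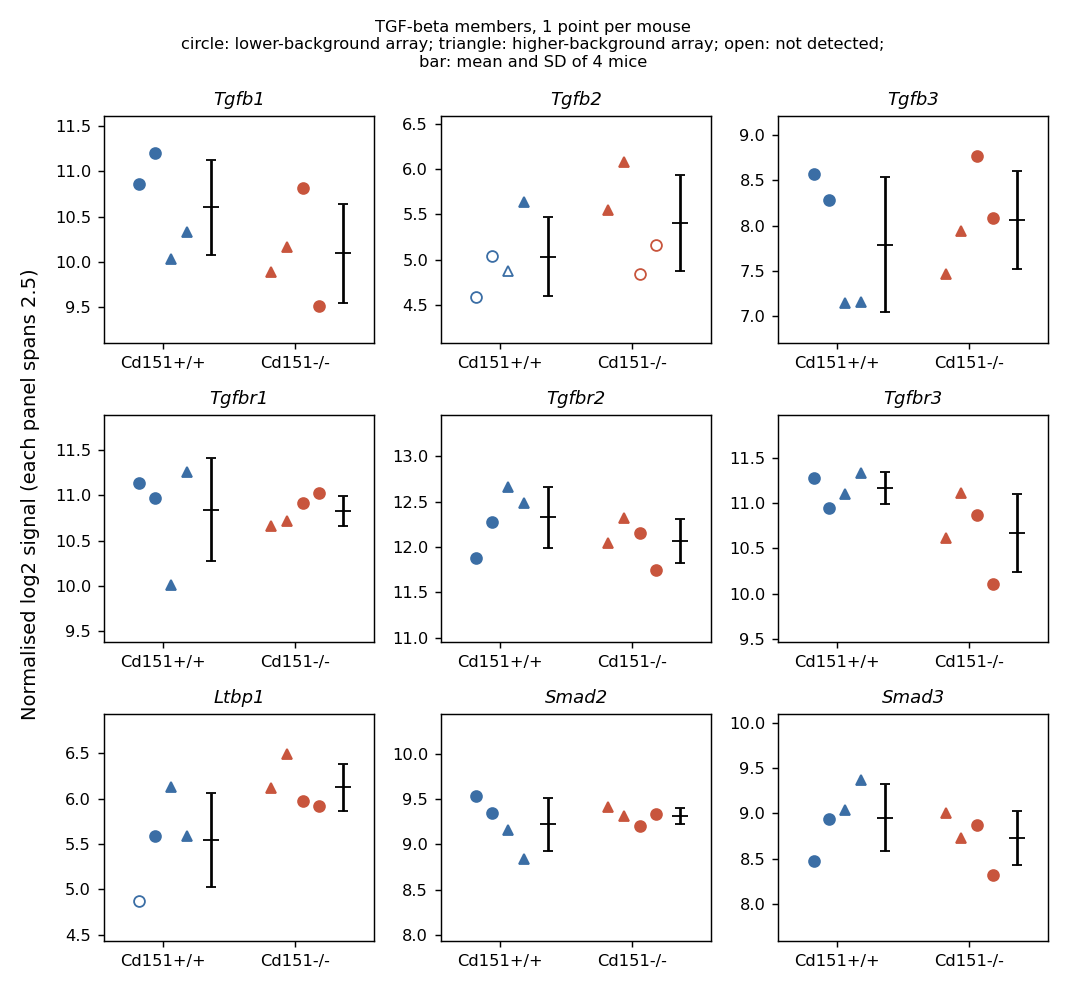
Normalised log2 signal (vertical axis, each panel spanning the same 2.5 units) of the 9 tested members in each of 4 Cd151+/+ (blue) and 4 Cd151-/- (red) mice, with the mean and SD of each genotype as a bar. Circles are lower-background and triangles higher-background arrays, open symbols mark arrays on which the probe was not detected, and the genotypes overlap in every panel.

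Tgfb1, the most widely expressed ligand, was detected in all mice with 1 probe (ILMN_2711461). Its level was 10.86, 11.20, 10.03 and 10.34 in Cd151+/+ mice 1 to 4 and 9.89, 10.17, 10.81 and 9.51 in Cd151-/- mice 1 to 4. Cd151-/- mouse 4 had the lowest value and Cd151+/+ mouse 2 the highest, and the groups overlapped. The means were 10.61 ± 0.52 and 10.10 ± 0.55 (SD, n = 4 each), a difference of -0.51 with a standard error of 0.33 (limma adjusted p = 0.918). The interval ran from 0.422-fold to 1.17-fold, and the exact permutation p was 0.200. Within the lower-background arrays the difference was -0.87 and within the higher-background arrays it was -0.15. The value depended on single mice. It was -0.31 without Cd151+/+ mouse 2 and also without Cd151-/- mouse 4 (limma unadjusted p = 0.389 and unadjusted p = 0.376), and -0.75 without Cd151-/- mouse 3 (limma unadjusted p = 0.0413, adjusted p = 0.529).

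Tgfb2, a ligand with prominent roles in development, was near the limit of detection. Its probe (ILMN_1225196) was detected in 1 Cd151+/+ mouse and 2 Cd151-/- mice, and all 3 of these were on higher-background arrays. The level was 4.59, 5.04, 4.88 and 5.63 in Cd151+/+ mice and 5.55, 6.07, 4.85 and 5.16 in Cd151-/- mice. The highest values were thus those of the 3 arrays on which the probe was detected. The difference was 0.37 with a standard error of 0.31 (limma adjusted p = 0.918), or 0.19 within the lower-background and 0.56 within the higher-background arrays. With 1 mouse left out it ranged from 0.14 (Cd151-/- mouse 2) to 0.59 (Cd151-/- mouse 3), with 0.24 on leaving out Cd151+/+ mouse 1, and it was 0.18 without background correction.

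Tgfb3, the third ligand, was detected in all mice (ILMN_2748966). Its level was 8.57, 8.28, 7.15 and 7.16 in Cd151+/+ mice and 7.47, 7.94, 8.77 and 8.08 in Cd151-/- mice. The 4 lower-background arrays held the 4 highest values, from 8.08 to 8.77, and the higher-background arrays reached 7.94 at most. The array sets therefore did not overlap, which held for 1 of 9 members and for 24.7% of all genes, with the higher-background set 1.00 lower on average. The genotype difference was 0.27 with a standard error of 0.38 (limma adjusted p = 0.920), the widest among the brightest probes of the members. It was 0.55 within the higher-background arrays and within 0.01 of 0 in the lower-background arrays. The exact permutation p was 0.600. With 1 mouse left out in turn it ranged from 0.04, without Cd151-/- mouse 3, to 0.53, without Cd151+/+ mouse 1.

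Tgfb3 had the largest SD over the 8 mice among the members detected in all of them, and the genes whose level followed it most closely were looked up. Of 11239 other genes, Prss25, Wdt3-pending and Tmem160 (symbols as listed on the array) had the highest Pearson correlations, each 0.97 with a Spearman correlation of 0.98. These describe 8 arrays that also share the background sets.

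Ltbp1 encodes a protein that binds the latent complex and anchors it to fibrillin and fibronectin. Its brightest probe (ILMN_1221564) was detected in every mouse except Cd151+/+ mouse 1. The level was 4.87, 5.59, 6.13 and 5.59 in Cd151+/+ mice and 6.12, 6.50, 5.97 and 5.92 in Cd151-/- mice. Only Cd151+/+ mouse 3 reached into the range of the Cd151-/- mice. The means were 5.55 ± 0.52 and 6.13 ± 0.26 (SD, n = 4 each), and the difference was 0.58 with a standard error of 0.28 (limma adjusted p = 0.918, unadjusted p = 0.0626). Its interval, from 0.975-fold to 2.30-fold, included 1, and the exact permutation p was 0.114. The difference was 0.72 within the lower-background and 0.44 within the higher-background arrays, and ranged from 0.37 without Cd151+/+ mouse 1 (limma unadjusted p = 0.201) to 0.78 without Cd151+/+ mouse 3 (limma unadjusted p = 0.0173, adjusted p = 0.760). It was 0.25 without background correction and 0.35 with an offset of 50.

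The other 2 tested Ltbp1 probes did not share this direction. ILMN_1234779, detected in 2 Cd151+/+ mice and no Cd151-/- mouse, differed by -0.30, and ILMN_2644746, detected in 1 and 0, by -0.19. Both lay near background and could be tested only through detection in Cd151+/+ mice, which by itself favours a negative difference. Their sign, and an average that includes them, therefore cannot settle the direction for Ltbp1. The remaining 3 were not detected on any array. Averaged over the 3 tested probes, the Ltbp1 difference was 0.03 in place of 0.58 (limma adjusted p = 0.976). Which transcripts the probes read was not analysed here.

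Tgfbr1, the type I receptor kinase, was detected in all mice by 1 of its 4 probes (ILMN_2602711), and the other 3 were not detected on any array. The level was 11.13, 10.96, 10.01 and 11.26 in Cd151+/+ mice and 10.66, 10.71, 10.91 and 11.02 in Cd151-/- mice. The Cd151-/- values all lay inside the Cd151+/+ range, and Cd151+/+ mouse 3 was the lowest. The difference was -0.02 with a standard error of 0.28 and an interval from 0.641-fold to 1.53-fold (limma adjusted p = 0.995).

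Tgfbr2, the type II receptor that binds ligand first, was detected in all mice by both of its probes. With the brighter one (ILMN_2760979) the level was 11.88, 12.28, 12.66 and 12.49 in Cd151+/+ mice and 12.04, 12.31, 12.16 and 11.75 in Cd151-/- mice. The 2 highest values were from Cd151+/+ mice, but Cd151+/+ mouse 1 was below 3 of the Cd151-/- mice. The difference was -0.26 with a standard error of 0.24 and an interval from 0.582-fold to 1.20-fold (limma adjusted p = 0.918). The second probe (ILMN_1242086) differed by -0.33, with a standard error of 0.28, in the same direction. With 1 mouse left out, the brighter probe ranged from -0.41, without Cd151+/+ mouse 1, to -0.15, without Cd151+/+ mouse 3.

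Tgfbr3 encodes betaglycan, a co-receptor that presents ligand, TGF-beta2 in particular, to the signalling receptors. Its brighter probe (ILMN_2789239) was detected in all mice, at 11.28, 10.95, 11.10 and 11.33 in Cd151+/+ mice and 10.61, 11.11, 10.86 and 10.11 in Cd151-/- mice. The Cd151+/+ values were tightly grouped, and only Cd151-/- mouse 2 fell among them. The means were 11.16 ± 0.17 and 10.67 ± 0.43 (SD, n = 4 each). The difference was -0.49 with a standard error of 0.25, and the interval ran from 0.487-fold to 1.04-fold (limma adjusted p = 0.918, unadjusted p = 0.0738). The exact permutation p was 0.0857. The difference was -0.63 within the lower-background and -0.35 within the higher-background arrays. It was -0.30 without Cd151-/- mouse 4 (limma unadjusted p = 0.216) and -0.64 without Cd151-/- mouse 2 (limma unadjusted p = 0.0304, adjusted p = 0.882). The second probe (ILMN_2606601) was detected on the 4 higher-background arrays only, and differed by -0.50 with a standard error of 0.51.

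**Figure D2:**
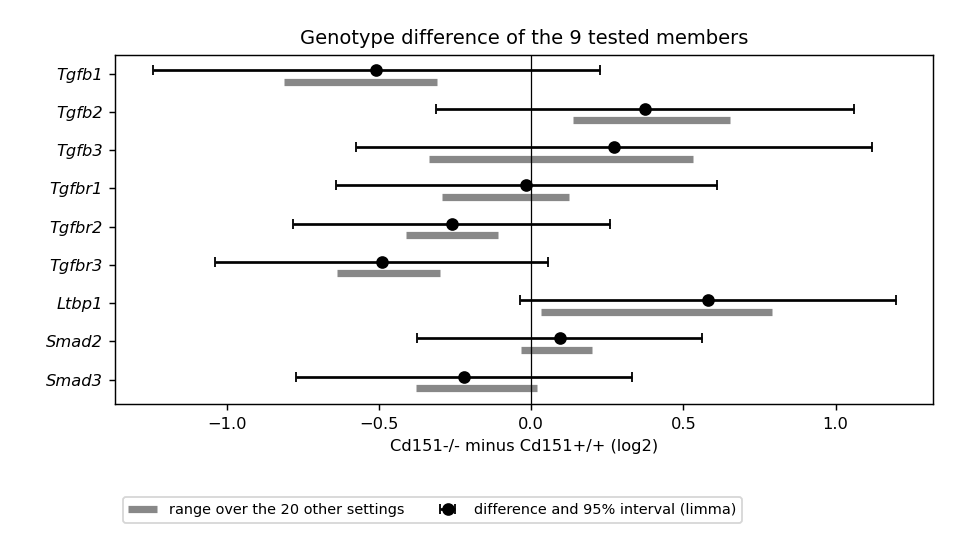
Cd151-/- minus Cd151+/+ difference in normalised log2 signal (horizontal axis) of each tested member, as a point with its 95% limma interval over 4 mice against 4. The grey bar is the range of the difference over the 20 other ways of processing or leaving out a mouse (19 for Tgfb2), and all 9 intervals include 0, with those of Tgfbr3 and Ltbp1 ending just past it.

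Endothelial and podocyte markers were examined beside the receptors, since a bulk isolate cannot tell fewer cells of a type from less RNA per cell. Of 9 endothelial markers, all tested, 8 were lower in Cd151-/- mice, as were 5652 of all 11240 genes, and 0 passed an unadjusted limma p of 0.05. Kdr, among the 8, was detected in 2 Cd151+/+ mice and no Cd151-/- mouse, so the need for detection favoured its direction. Their summed signal was 38396 to 48868 in Cd151+/+ mice, and 28191, 36867, 48891 and 25530 in Cd151-/- mice 1 to 4. Every Cd151-/- sum but that of mouse 3 lay below all Cd151+/+ sums. Cd151-/- mouse 4 had the lowest endothelial sum, and also the lowest Tgfb1, Tgfbr2, Tgfbr3 and Smad3 levels. The other tested members were lowest in other mice. All 5 tested podocyte markers were lower without passing, and Kirrel and Magi2 were among the markers not detected on any array. The podocyte sums were 101804 to 108712 in Cd151+/+ mice, and 87218, 94252, 110578 and 94263 in Cd151-/- mice 1 to 4. Here too, only that of mouse 3 was not below all Cd151+/+ sums. Of 5 tested mesangial and smooth muscle markers, 4 were lower, Pdgfrb at an unadjusted limma p of 0.0399, and Acta2 was 0.38 higher. Their sums were 16587 to 22308 in Cd151+/+ mice, and 15327 in mouse 4 but 25280 to 25962 in mice 1 to 3 of Cd151-/-. Acta2 was the brightest of these markers, with a lowest level of 13.71, while Des, the next, reached 11.32 at most. Since linear signals are added, the sums mostly follow Acta2 and say little about the 4 lower markers. The part of these cell types in the receptor values was not tested.

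The isolates also held tubule, blood and immune transcripts. All 7 tested proximal tubule markers were higher in Cd151-/- mice, as were 5588 of all 11240 genes. Among the 7, Slc22a8 was past the unadjusted p. Lrp2 was detected in no Cd151+/+ mouse and 2 Cd151-/- mice, so the need for detection favoured its direction. Slc22a8 was detected in 1 Cd151+/+ and 4 Cd151-/- mice. The proximal tubule sums were 14158 to 37671 in Cd151+/+ and 26067 to 44741 in Cd151-/- mice. For the distal nephron the sums were 32392 to 58312 and 29891 to 45373, and 0 of 5 tested markers passed. All 4 erythroid markers were lower, 2 past the unadjusted p, with sums of 38095 to 50125 and 17920 to 37502. The leukocyte markers Ptprc, Itgam and Emr1 were not detected on any array, and the sum of the 5 tested was 504 to 959 in Cd151+/+ mice and 589 to 3687 in Cd151-/- mice, highest in mouse 4. The part of these transcripts in the member values was not tested either.

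Smad2, a receptor-activated Smad, was the steadiest member, and was detected in all mice (ILMN_1228414). Its level was 9.53, 9.35, 9.16 and 8.84 in Cd151+/+ mice and 9.41, 9.31, 9.20 and 9.33 in Cd151-/- mice. All 4 Cd151-/- values lay inside the Cd151+/+ range. The difference was 0.09 with a standard error of 0.21, and the interval from 0.772-fold to 1.48-fold was the narrowest of the members (limma adjusted p = 0.949). It was -0.17 within the lower-background and 0.36 within the higher-background arrays, and 0.20 without Cd151+/+ mouse 1.

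Smad3, the receptor-activated Smad that binds DNA directly, was detected in all mice (ILMN_2938893). Its level was 8.47, 8.93, 9.04 and 9.37 in Cd151+/+ mice and 9.01, 8.73, 8.87 and 8.32 in Cd151-/- mice. The highest value was from a Cd151+/+ mouse and the lowest from a Cd151-/- mouse, with the others interleaved. The difference was -0.22 with a standard error of 0.25 and an interval from 0.585-fold to 1.26-fold (limma adjusted p = 0.918). With 1 mouse left out it ranged from -0.38, without Cd151+/+ mouse 1, to -0.08, without Cd151-/- mouse 4.

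For Smad7, the inhibitory Smad, the signal of its probe (ILMN_2759660) was not distinguishable from the negative controls in any mouse. No difference can be given, and a lack of detection by 1 probe does not show that the transcript was absent.

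**Figure D3:**
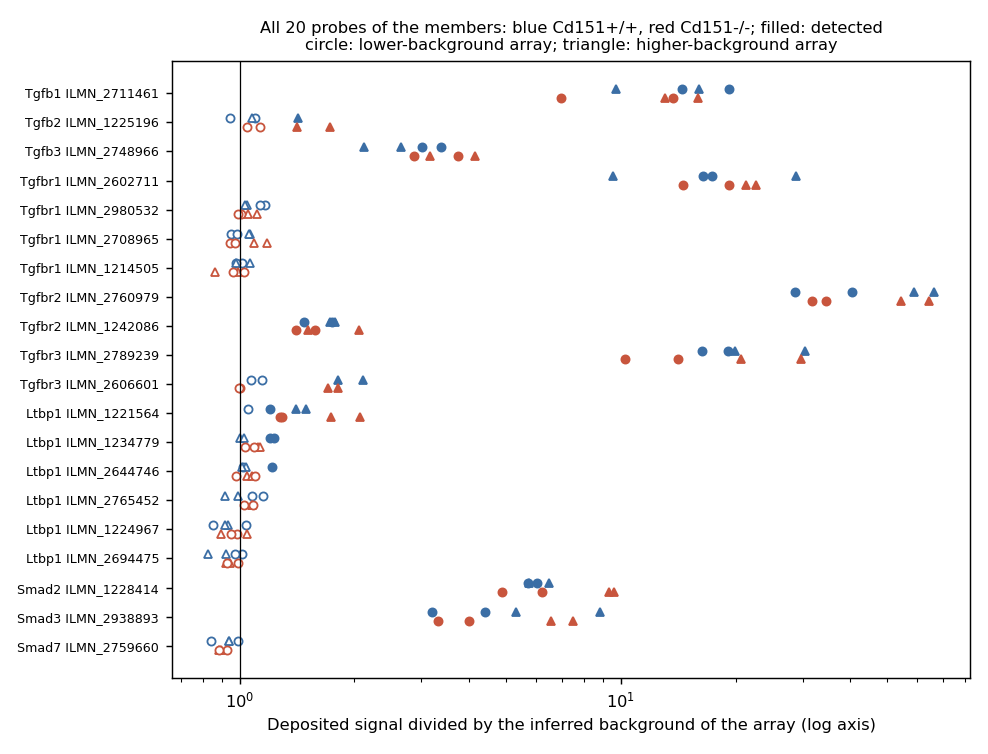
Deposited signal of all 20 member probes divided by the inferred background of each array (horizontal log axis, 1 marking the background), with blue for Cd151+/+, red for Cd151-/-, circles and triangles for lower- and higher-background arrays and filled symbols for detection. Probes differ in efficiency, so rows cannot be ranked, but Smad7, 3 Tgfbr1 probes and 3 Ltbp1 probes have no filled symbol, and Tgfb2 and the Ltbp1 probes lie near 1.

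Within the array sets, the difference had the same sign in both for 6 of 9 members, Tgfb1, Tgfb2, Tgfbr2, Tgfbr3, Ltbp1 and Smad3. The other 3, Tgfb3, Tgfbr1 and Smad2, changed sign between the sets. The median size of the shift between array sets was 0.39 over the members and 0.37 over all genes. With the array set as a block, Tgfbr3 and Ltbp1 passed the unadjusted limma p of 0.05 (unadjusted p = 0.0481 and unadjusted p = 0.0233), with adjusted p of 0.440 and 0.402. The block raised the share of all probes past that p from 4.30% to 11.3%, so 2 of 9 members is read against the latter.

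**Figure D4:**
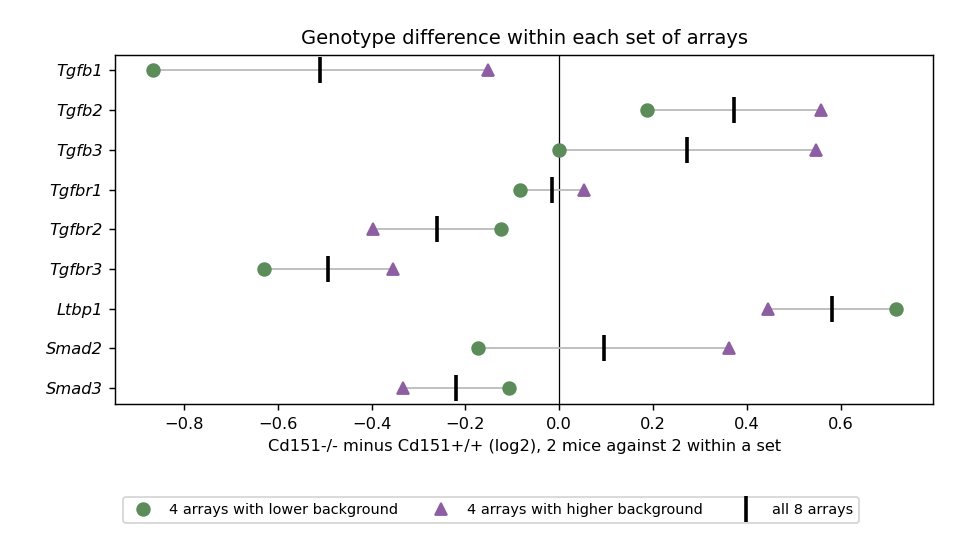
Cd151-/- minus Cd151+/+ difference in normalised log2 signal (horizontal axis) of each tested member within the 4 lower-background arrays (circles), within the 4 higher-background arrays (triangles) and over all 8 (bars), with 2 mice against 2 inside a set and so no error bar. Tgfb1, Tgfbr2, Tgfbr3 and Smad3 lie below 0 and Tgfb2 and Ltbp1 above 0 in both sets, while Tgfb3, Tgfbr1 and Smad2 change sign, Tgfb3 only by a lower-set value next to 0.

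The wider pathway was read through 4 lists of 76 genes in all, of which 56 had a tested probe. At an unadjusted limma p of 0.05, 1 of these was higher in Cd151-/- mice and 3 were lower, against 1.9% and 2.47% of all genes. Groups did not overlap for 3 of 56, where 2.27% of all genes did so, and 0 passed adjustment. The median difference was -0.02.

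Of 14 genes for latency and activation, 10 were tested, with 0 higher, 1 lower and a median of -0.04. The lower one was Ltbp2, a fibrillin-associated member of the Ltbp family. Its level was 5.65, 5.47, 5.32 and 5.56 in Cd151+/+ mice and 4.87, 5.30, 4.66 and 5.12 in Cd151-/- mice, with all Cd151-/- values below all others. The difference was -0.51 with a standard error of 0.21 (limma adjusted p = 0.918, unadjusted p = 0.0365), close to the limit of detection, since the probe was detected in 3 and 1 mice. The unadjusted p was above 0.05 without Cd151+/+ mouse 1, 2 or 4 or Cd151-/- mouse 1 or 3, at up to 0.103. It was also above 0.05 with 75th percentile scaling, without background correction, where the difference was -0.23, with an offset of 50 and with the mouse number as a block. Ltbp4, another family member, differed by -0.67 (limma adjusted p = 0.918).

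Thbs1, thrombospondin-1, which can release TGF-beta from its latent complex, was likewise close to background, detected in 1 Cd151+/+ and 3 Cd151-/- mice. Its level was 4.78, 5.14, 5.31 and 5.38 in Cd151+/+ and 5.45, 5.90, 5.38 and 5.76 in Cd151-/- mice. The groups did not overlap, but they met at 5.38. The difference was 0.47 with a standard error of 0.23 (limma adjusted p = 0.918, unadjusted p = 0.0612), and the exact permutation p was 0.0286, the smallest possible. Without background correction it was 0.20.

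Of 12 further receptors and co-receptors of the superfamily, 8 were tested, none passed in either direction, and the median was -0.06. The lowest p belonged to Acvr2b, an activin type II receptor, with a level of 10.79, 10.53, 10.57 and 10.33 in Cd151+/+ and 10.12, 10.23, 10.41 and 9.79 in Cd151-/- mice. Only Cd151-/- mouse 3 lay above the lowest Cd151+/+ mouse. It differed by -0.42 with a standard error of 0.22 (limma adjusted p = 0.918). Acvr1, a type I receptor for BMPs and activins, differed by 0.28 with a standard error of 0.22. Endoglin (Eng), the endothelial co-receptor, differed by -0.24 with a standard error of 0.26.

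Of 20 other Smads and Smad regulators, 14 were tested, none passed in either direction, and the median was -0.01. Smad4, the common partner of Smad2 and Smad3, differed by 0.10 with a standard error of 0.35. The lowest p values were those of Pmepa1 (listed as Tmepai), a feedback inhibitor of Smad activation, at -0.49 with a standard error of 0.36, and of Skil, a Smad co-repressor, at 0.43 with a standard error of 0.31 (limma adjusted p = 0.918 for both).

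Of 34 genes known as targets of TGF-beta, 28 were tested, 1 was higher, 3 were lower and the median was -0.13. The list was not split by whether TGF-beta raises or lowers a gene, so these counts and the median give no direction of signalling. The differences ran from -1.48 for Junb to 1.36 for Spp1, which encodes osteopontin and whose standard error was 0.79 (limma adjusted p = 0.918). Id2, an inhibitor of basic helix-loop-helix factors, differed by 0.94 with a standard error of 0.44 (limma adjusted p = 0.918). Its probe was close to background, detected in 1 Cd151+/+ and 3 Cd151-/- mice. The genes past the unadjusted p did not share a direction, and each also responds to other signals.

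Timp1, an inhibitor of matrix metalloproteinases, was the higher one. Its level was 7.03, 7.08, 6.91 and 6.10 in Cd151+/+ and 7.63, 7.24, 7.59 and 7.81 in Cd151-/- mice, and the groups did not overlap. The difference was 0.79 with a standard error of 0.26 (limma adjusted p = 0.918, unadjusted p = 0.0124), and the exact permutation p was 0.0286. It was 0.64 and 0.93 within the lower- and higher-background arrays.

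Junb, an AP-1 subunit of the immediate early response, was the gene of the 4 lists with the lowest p. Its level was 13.45, 13.07, 12.03 and 13.08 in Cd151+/+ and 11.16, 12.55, 11.82 and 10.18 in Cd151-/- mice. Cd151-/- mouse 2 lay above Cd151+/+ mouse 3, so the groups overlapped. The difference was -1.48 with a standard error of 0.47 (limma adjusted p = 0.918, unadjusted p = 0.00943), and was -2.26 within the lower-background and -0.70 within the higher-background arrays.

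Snai1, a repressor of epithelial genes, followed with 8.10, 8.14, 7.91 and 7.66 in Cd151+/+ and 7.47, 7.84, 7.07 and 6.31 in Cd151-/- mice. Cd151-/- mouse 4 was the lowest for both Junb and Snai1. The exact permutation p for Snai1 was 0.0571. The Snai1 difference was -0.78 with a standard error of 0.31 (limma adjusted p = 0.918, unadjusted p = 0.0300), with -1.43 within the lower-background and -0.13 within the higher-background arrays. Without Cd151-/- mouse 4 it was -0.49 (limma unadjusted p = 0.0834), and the unadjusted p was also above 0.05 without Cd151+/+ mouse 1, 2 or 3 or Cd151-/- mouse 3, at up to 0.0705, and in an equal-variance test without moderation, at 0.0648.

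**Figure D5:**
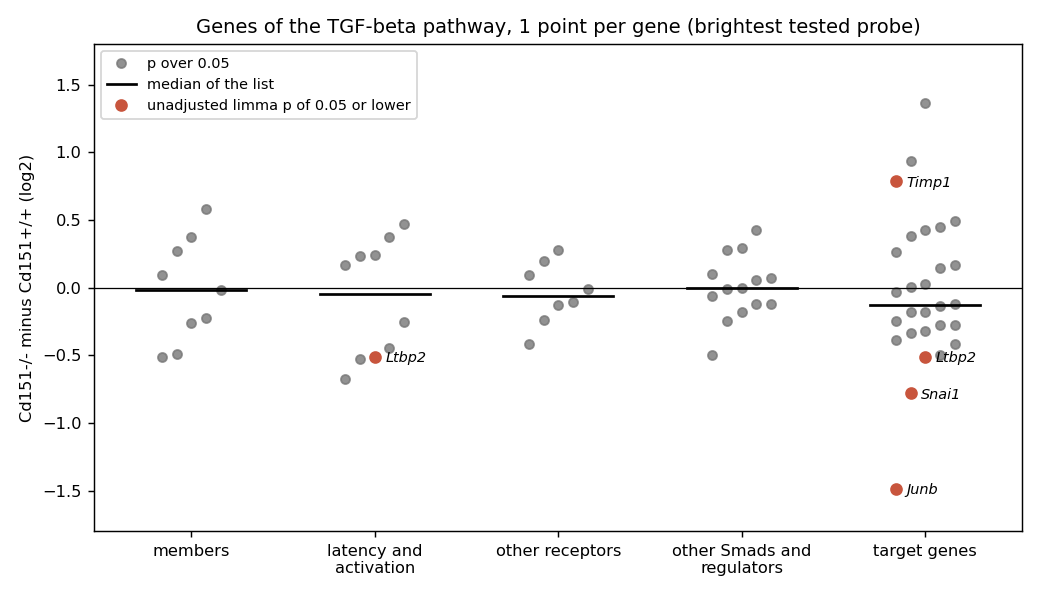
Cd151-/- minus Cd151+/+ difference in normalised log2 signal (vertical axis) of each tested gene among the members and the 4 pathway lists, 1 point per gene, with the list's median as a line and genes at an unadjusted limma p of 0.05 or lower in red and named. The medians lie between -0.13 and -0.01, and the red points, which include Ltbp2 in both lists that hold it, fall on both sides of 0.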

How the data were processed

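The authors extracted glomerular RNA, prepared biotin-labelled cRNA and read the BeadChips, and GenomeStudio is named in the submitters' processing notes. The deposited table gives the intensity of each probe on each array, neither background-subtracted nor normalised, and the deposited detection p-value, in steps of 1 over 798 negative controls. In R 4.3.3, limma 3.58.1 estimated array backgrounds from these p-values, applied neqc (offset 16, quantile normalisation) and fitted the genotypes with lmFit and eBayes, with Benjamini-Hochberg adjustment over the 14967 probes detected on at least 1 array. Groups came from the sample labels. A gene is given by its brightest tested probe, and for an undetected group the fold is a bound against the lowest detected signal of each array. Marker sums add the linear normalised signals of tested markers, so the brightest markers weigh most.

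The members, lists and tests were chosen with earlier results of these data known. Named list genes had an unadjusted p under 0.05 or groups that did not overlap, filled up to 2 a list by lowest p. Ltbp4, Eng, Smad4, Spp1 and Id2 were added after their values were seen. Some single genes of the lists are not reported here. Promoters came from RefSeq (GRCm38.p6), where 6 members had a window used here. In simulated data with 200 probes changed by 2 on the log2 scale, limma called 165, all with the right sign, and made 0 calls with none changed. The simulated noise was independent between probes and held no array sets, and the change exceeded every member difference. It therefore checks the fit only, and not the power or error rate for the members.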

Additional observations from a re-analysis of the deposited data

How the results depend on the processing

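Of 179 values of the 9 members under 20 other settings, 170 kept their direction and their side of the adjusted threshold and 9 reversed. Members past an unadjusted p of 0.05, 0 in the reported setting, numbered 1 without normexp, with an offset of 50 or without the detection filter (Tgfbr3 each time), 2 with the background set as a block, 3 with array weights (Tgfb1, Tgfb2 and Ltbp1, lowest adjusted p 0.0924), and 0 to 1 when 1 mouse was left out. The calls over all 14967 probes rose from 643 to 1690 with the background set as a block and to 4816 with array weights, and the counts of members and pathway genes under both are read against these. The cause was not tested.

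Tgfbr1 was 0.024 when scaled to the 75th percentile, a scaling under which the median over all probes was -0.07, and -0.29 to 0.13 with 1 mouse left out. With array weights Tgfb3 was -0.34 and Smad3 0.020. With 1 mouse left out Smad2 ranged from -0.032 to 0.20. Tgfb2 could not be tested under detection on all 4 arrays of a group.

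In the pathway lists, 1 gene was higher in the reported setting, and 2 with 75th percentile scaling, trended variance or the equal-variance test, 3 without the detection filter, 6 with the background set as a block and 9 with array weights, with 1 to 4 when 1 mouse was left out. The 3 lower genes became 12 with array weights and 1 to 5 when 1 mouse was left out. Timp1 and Junb passed the unadjusted p in all 20 settings.

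Same-numbered mice of the 2 genotypes did not deviate together (correlations of -0.67, -0.42, -0.59 and 0.07), and each such pair held 1 lower- and 1 higher-background array, so the numbers were not taken as a pairing. With the replicate block, 0 members, 1 higher and 2 lower pathway genes passed the unadjusted p, and the calls over all probes went from 643 to 420. With 4 mice a group, the members' intervals reached from 0.422-fold to 2.30-fold, and Tgfb2 and Ltbp1 were limited by signals close to background.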
